A study of Mus musculus with 44 samples.

Results

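The genes that write, copy or remove DNA methylation were followed here through a B cell differentiation time course. They were Dnmt1, Uhrf1, Dnmt3a, Dnmt3b, Tet1, Tet2, Tet3 and Tdg, taken by name as 8 of the 23234 genes of the deposited table, and all 8 passed the filter on low values. The cells studied, named induced leukocyte stem (iLS) cells, are multipotent progenitors made from fetal liver of C57BL/6J mice and carry Id3-ERT2, a fusion of the E protein inhibitor Id3 to a receptor domain switched on by 4-hydroxytamoxifen (4-OHT). At 0 h they had been grown on TSt-4 stromal feeder cells with IL-7 at 20 ng/mL, SCF and Flt-3L at 10 ng/mL each and 4-OHT at 40 nM. For all later samples 4-OHT was withdrawn and IL-7 lowered to 5 ng/mL, still on the feeder line. Only IL-7 has a level listed for this later culture, and none is listed there for SCF or Flt-3L. Poly(A) RNA was sequenced in 44 libraries. Each of 14 time points had 3 (0, 0.5, 1, 2, 4, 6, 8, 10, 12, 24, 48, 72, 96 and 144 h), and 120 and 168 h had 1 each. The fusion gene, the strain and the feeder line were common to every group. The labels mention neither a removal of feeder cells ahead of RNA extraction nor separate cultures for the replicates. The p-values therefore cover the spread among these libraries only, which may be technical.

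In mammals, methyl groups sit mainly on the cytosine of CpG pairs. DNMT1 copies them onto the new strand after DNA replication, guided by UHRF1, which binds CpG sites methylated on the old strand alone. DNMT3A and DNMT3B set new methyl groups. The TET enzymes oxidise methylcytosine to hydroxymethylcytosine and further forms, and TDG cuts out the most oxidised forms so that base excision repair can restore plain cytosine. In blood formation, DNMT3A and TET2 are best known as regulators of stem cell self-renewal, and TET2 and TET3 for their part in B cell development.

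The promoters of the copying pair shared a sequence feature. RefSeq promoter windows (build GRCm38.p6, 250 bases before to 50 bases after a transcript start) were found for 8 of 8 genes, 13 windows in all. Both strands were searched for an E2F-type motif, bound by regulators of S-phase genes and written as TTTCCCGC, TTTCGCGC, TTTGCCGC or TTTGGCGC. One Dnmt1 window and one Uhrf1 window held it, and no window of the other 6 genes did. The shared form is shown in capitals, on the strand of each gene.
Dnmt1: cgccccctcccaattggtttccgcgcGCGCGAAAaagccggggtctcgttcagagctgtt
Uhrf1: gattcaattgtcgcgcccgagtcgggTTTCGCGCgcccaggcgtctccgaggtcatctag
The Dnmt1 stretch is chr9:20952809-20952868 on the minus strand. Its match reads on the opposite strand and begins 219 bases before the start. The Uhrf1 stretch is chr17:56304102-56304161 on the plus strand, and its match begins 185 bases before the start. The same Dnmt1 window held a second match (TTTGGCGC), 33 bases after the start. The motif occurred in 2.26% of all 32851 windows of the table, against 11 of the 22 windows of a list of DNA replication genes (20 of 24 genes matched). It was also in 3 of the 17 windows of a list of methylation partner genes. The Dnmt1 and Uhrf1 windows with the motif each held 33 CpG pairs, against a median of 7 and an upper quartile of 20 over all windows. Each searched form contains CG, so the 2.26% is not a share among windows of like composition. Of the E-box forms bound by E proteins and related factors, CAGGTG was in a Dnmt1 and a Dnmt3b window (20.2% of all windows) and CAGCTG in the Tet3 window (16.3%). CACGTG was in a Dnmt3a and the Tdg window (7.15%). A match describes these letters only, not binding.

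Values are FPKM, which corrects fragment numbers for transcript length and for library size, so that levels of different genes can be set side by side. A library's values summed to between 516025 and 701705, and 11520 to 12316 genes reached 1 FPKM. Of the marker genes, the progenitor genes Flt3 and Kit stood at 145 and 22.9 FPKM at 0 h, but Gata2 at 0.179. The B-lineage gene Igll1 went from 30.3 FPKM at 0 h to 390 at 144 h. At 0 h the B-lineage list summed to 124 ± 21.9 FPKM and the myeloid list to 188 ± 28.5 (SD, n = 3). The erythroid list summed to 94.1 ± 39.1 and the NK and innate lymphoid list to 79.7 ± 44.6. Highest in these 3 other lists were Lyz2 (99.9 FPKM), Hbb-b1 (92.5) and Nkg7 (72.9). What such genes add to the results was not tested. Of 8 T-lineage genes, Cd3e was at 0 in 41 of the 44 libraries, while Tcf7 and Lck stood at 40.4 and 35.8 FPKM at 0 h. For 0, 24 and 144 h the 8 summed to 81.9 ± 26.3, 27.4 ± 21.7 and 72.8 ± 38.4 FPKM (SD, n = 3), and their part in the results was not tested. The balance of feeder and blood transcripts moved with time. The 24 stromal feeder genes added up to 1195 ± 828 FPKM before the culture change (SD, n = 3). After 0.5, 6, 24 and 144 h the sums were 5628 ± 389, 9313 ± 496, 7736 ± 855 and 2223 ± 522. Of these 24 genes, 22 were tested, and all 22 were called higher at 0.5, 6, 24 and 72 h and 9 at 144 h. Lum was at 0 in all 44 libraries. The 18 general blood-cell genes, such as Ptprc and Coro1a, summed to 2157 ± 324 FPKM at 0 h and to 1071 ± 70.2, 714 ± 16.9, 479 ± 202 and 1533 ± 153 at those later times. In bulk RNA, fewer blood cells and less RNA of a gene per blood cell cannot be told apart, and feeder and iLS transcripts are both from mouse. The part of this shift in the results was not tested, but the directions at 0.5, 6, 24, 72 and 144 h are also described with libraries scaled so that the blood-cell genes have the same mean log2 level in all of them. That scaling moved the median log2 change of all genes for 0.5, 6, 24, 72 and 144 h to 0.69, 1.21, 1.88, 0.91 and 0.38, from -0.06, -0.06, -0.06, 0.03 and 0.03 as deposited. It thus lifts most genes against 0 h and cannot count against a rise. With the mean of the stromal genes as a covariate, limma called 0.144%, 0.0288%, 0.0360% and 0.0216% of all genes for 0.5, 6, 24 and 72 h. None of the 8 was among them, and at an unadjusted p under 0.05 the count was 0 at 0.5 and 6 h and 1 at 24 and 72 h. The stromal mean itself moved with time, so this fit can hardly tell it from time between 0.5 and 72 h. Few calls were possible there for any gene, and their absence decides nothing. At 144 h it called 3.03% of genes against 0 h, 2 of the 8 among them, and 2.16% against 24 h, 1 of the 8.

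The 8 genes spanned a wide range of levels before differentiation. At 0 h the copying genes were at the top, with 78.7 ± 1.85 FPKM for Uhrf1 and 74.7 ± 10.9 for Dnmt1 (SD, n = 3), which did not differ beyond their spread. Dnmt3b (18.6 ± 4.77) and Dnmt3a (16.6 ± 2.46) came next and overlapped each other. Tet3 stood at 13.4 ± 0.748 FPKM, Tet2 at 6.36 ± 0.633 and Tet1 at 3.08 ± 0.0833, in that order without overlap, and Tdg at 9.17 ± 7.10 overlapped Dnmt3a, Dnmt3b, Tet3 and the lower genes. At 144 h Uhrf1 (168 ± 28.6) lay above Dnmt1 (89.5 ± 13.8) with no overlap. The middle of the order, Dnmt3b at 12.3 ± 2.69, Tet3 at 10.2 ± 1.55 and Dnmt3a at 9.97 ± 2.51, could not be separated at that time. Tet1 stayed the lowest of the 8, at 1.06 ± 0.129 FPKM.

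**Figure D1:**
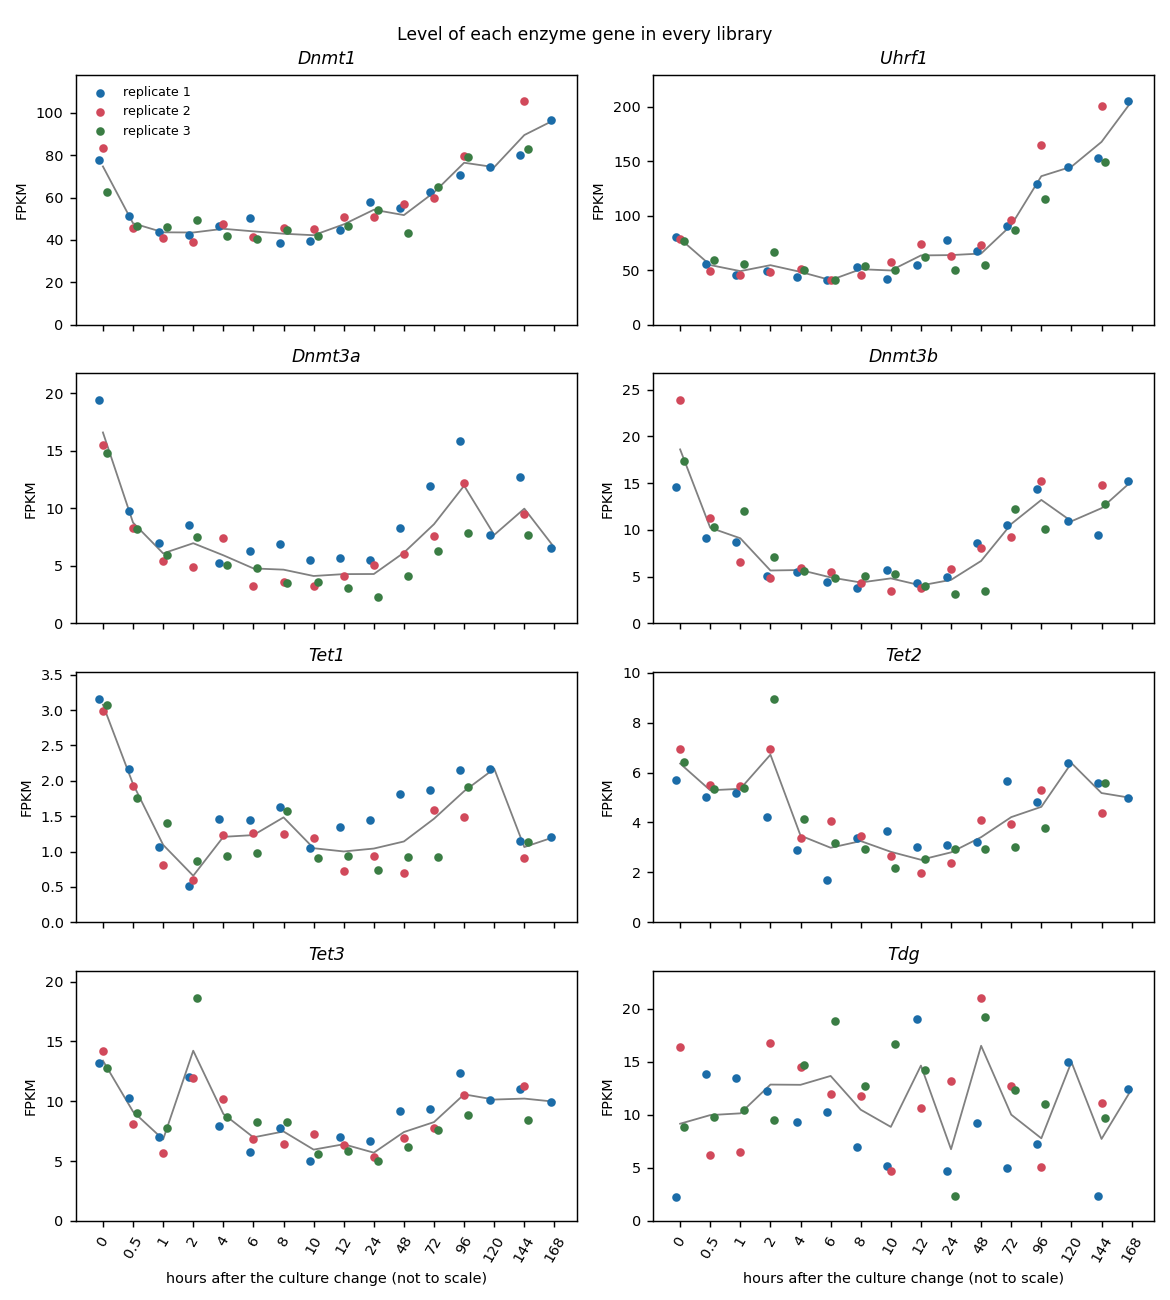
FPKM of each of the 8 genes (vertical axes, each from 0) against hours after the culture change (horizontal axis, not to scale). Points are libraries, coloured by replicate, and the line joins the means, with 1 library at 120 h and at 168 h; as deposited, 7 genes drop after 0 h (their changes at 24 h turn positive when scaled to the blood-cell genes), Uhrf1 ends far above its start, Tet3 has a peak at 2 h and Tdg scatters.

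Of the 8 genes, 7 changed over the time course. By the F test of limma on log2(FPKM + 1) over the 13 later time points, all but Tdg (adjusted p = 0.416) were called at an adjusted p under 0.05, where 56.0% of all 13907 genes tested were called. The count of the 8 was 5 without replicate 2. Adjusted p ranged from 2.44e-11 for Uhrf1 to 0.000145 for Tet1. The comparisons with 0 h that follow share the same 3 control libraries. Errors on log2 changes are SE from the fit. With 3 libraries a group, the smallest p an exact permutation test can give is 0.1.

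Dnmt1, the maintenance methyltransferase, was lower by 0.5 h and came back over days. Its 3 libraries held 78.0, 83.6 and 62.5 FPKM at 0 h and 51.4, 45.6 and 46.6 at 0.5 h. The groups lay apart, and every library from 0.5 to 48 h stayed below the lowest at 0 h, the highest of them being 57.7 at 24 h. The lowest mean was 42.2 FPKM at 10 h. By 72 h the libraries held 62.6, 59.9 and 64.8 FPKM, overlapping 0 h, and at 144 h they held 80.2, 105 and 83.0. The log2 change was -0.62 ± 0.12 at 0.5 h (limma adjusted p = 0.000336), -0.74 ± 0.12 at 6 h and -0.44 ± 0.12 at 24 h (adjusted p = 0.0042). Scaled to the blood-cell genes these 3 changes were 0.34, 0.86 and 1.88. At 144 h Dnmt1 did not differ from 0 h by the test (0.26 ± 0.12, adjusted p = 0.218).

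Uhrf1, the partner that brings DNMT1 to hemimethylated sites, started like Dnmt1 and ended higher. The 0 h libraries held 80.6, 78.7 and 76.9 FPKM, and those of 0.5 h 55.2, 49.5 and 59.4. After 6 h they held 40.9, 41.1 and 40.8 FPKM, the lowest mean of the course. At 24 h the libraries spread over 78.1, 63.0 and 50.4 FPKM and touched the range of 0 h. The 3 libraries at 96 h, with 129, 165 and 115 FPKM, and at 144 h, with 153, 201 and 150, all lay above every library at 0 h. The log2 change was -0.52 ± 0.16 at 0.5 h (limma adjusted p = 0.0172) and -0.93 ± 0.16 at 6 h, which turned to 0.44 and 0.68 when scaled to the blood-cell genes. At 144 h it was 1.07 ± 0.16 (adjusted p = 2.41e-05), a 2.13-fold higher mean. This rise was called under each alternative run, with values from 0.93 without 144 h replicate 2 to 1.54 with the blood-cell scaling. That scaling put the median of all genes at 0.38, so it favoured a rise. At 96 h the log2 change was 0.77 ± 0.16 (adjusted p = 0.00171), and 1.32 with the blood-cell scaling.

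Dnmt3a, a de novo methyltransferase, showed one of the deepest drops. It fell from 19.4, 15.5 and 14.8 FPKM at 0 h to 9.78, 8.25 and 8.24 at 0.5 h. At 24 h it stood at 5.53, 5.10 and 2.26 FPKM. All libraries from 0.5 to 72 h were below the lowest of 0 h, and at 96 h the highest of them (15.8) entered the 0 h range. The log2 change at 24 h was -1.79 ± 0.29 (limma adjusted p = 9.02e-06), a mean at 0.26 of that at 0 h. With the blood-cell scaling it was 0.29, which was 1.59 below the median of all genes so scaled. At 144 h the libraries held 12.7, 9.52 and 7.71 FPKM, each below those of 0 h, and the difference of -0.70 ± 0.29 did not pass the test (adjusted p = 0.144).

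Dnmt3b, the other de novo enzyme, moved almost in step with Dnmt3a. Its libraries at 0 h held 14.6, 23.9 and 17.3 FPKM. After 0.5 h they held 9.12, 11.3 and 10.3 FPKM, and after 24 h 4.99, 5.83 and 3.17. Its libraries from 0.5 to 72 h all lay below those of 0 h. The log2 change at 24 h was -1.79 ± 0.24 (limma adjusted p = 5.78e-07), and 0.32 when scaled to the blood-cell genes, 1.55 below the median of all genes. At 144 h the values of 9.45, 14.8 and 12.7 FPKM overlapped those of 0 h (-0.55 ± 0.24, adjusted p = 0.172). For both genes the RefSeq table also names a pseudogene (Dnmt3a-ps1, Dnmt3b-ps1), and how reads were shared with them is not given in the sources used here.

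Tet1, the least abundant of the dioxygenase genes, reached its low point at 2 h. Its 0 h libraries held 3.16, 2.99 and 3.08 FPKM. After 1 h they held 1.07, 0.812 and 1.40 FPKM, and after 2 h 0.515, 0.594 and 0.862. Those 2 h values lay under 1 FPKM, the level of the filter and of the pseudocount. Every later library of the series stayed below the lowest 0 h library, the highest of them reaching 2.17 FPKM. It was also called lower at 144 h, when it stood at 1.14, 0.914 and 1.13 FPKM. That log2 change was -0.98 ± 0.19 (limma adjusted p = 0.000806), a mean at 0.35 of that at 0 h. When scaled to the blood-cell genes it was -0.49 and no longer passed (adjusted p = 0.201). The 2 h change of -1.30 ± 0.19 (limma adjusted p = 2.71e-06) was the deepest for Tet1 at any time point, and was -0.50 and not called with the blood-cell scaling (adjusted p = 0.0591).

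Tet2, the second of the dioxygenase genes by level, was first called lower at 4 h. Its libraries held 5.70, 6.96 and 6.42 FPKM at 0 h and between 4.23 and 8.95 at 2 h, which spanned the 0 h range. At 4 h they held 2.88, 3.39 and 4.14, all below 0 h. The log2 change was -0.22 ± 0.22 at 0.5 h (limma adjusted p = 0.501), -0.72 ± 0.22 at 4 h (adjusted p = 0.00933) and -0.96 ± 0.22 at 24 h (adjusted p = 0.000605), which were 0.55, 0.41 and 0.95 when scaled to the blood-cell genes. At 144 h it stood at 5.59, 4.37 and 5.58 FPKM (-0.26 ± 0.22, adjusted p = 0.562, and 0.14 so scaled).

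Tet3, the most abundant Tet gene, dropped, came back for one time point and dropped again. The 0 h libraries held 13.2, 14.2 and 12.8 FPKM, and those of 1 h 7.02, 5.67 and 7.74. After 2 h they held 12.1, 12.0 and 18.7 FPKM, and after 4 h 7.96, 10.2 and 8.67. All 3 libraries at 2 h were above all 3 at 1 h and at 4 h. The comparison of 2 h with 1 h was added after these values were seen, and its log2 change was 0.94 ± 0.18 (limma adjusted p = 0.00406), where 0.575% of all genes were called higher. Within the 3 runs of consecutive library codes that hold both times it was 0.70, 0.96 and 1.17. It lost the call without 2 h replicate 3 (0.74, adjusted p = 0.059), without 1 h replicate 2 (0.83, adjusted p = 0.0531), with these 6 libraries fitted alone (adjusted p = 0.219) and scaled to the blood-cell genes (0.99, adjusted p = 0.125). Among 104 gene-by-step comparisons of neighbouring time points, 6 were called: 5 at the first step and this one.

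Over the same hour Tet1 had a log2 change in the other direction in each of the 3 runs (-0.45, -0.19 and -0.37), and no call. Tet2 was at -0.24, 0.30 and 0.64. At 24 h Tet3 stood at 6.71, 5.36 and 5.04 FPKM, a log2 change of -1.11 ± 0.18 from 0 h (limma adjusted p = 6.86e-06) that became 1.01 when scaled to the blood-cell genes. At 144 h it held 10.98, 11.2 and 8.44 FPKM, just below the 0 h libraries, and did not pass the test (-0.37 ± 0.18, adjusted p = 0.222, and 0.08 with the blood-cell scaling).

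For Tdg, the glycosylase gene, no difference passed the test as deposited, and its replicates scattered more than those of the other genes. Before the culture change its libraries held 2.22, 16.4 and 8.88 FPKM. After 24 h they held 4.71, 13.2 and 2.40 FPKM, and after 144 h 2.34, 11.2 and 9.70. The coefficient of variation within a time point had a median of 38.3%, against medians of 6.58 to 29.4% for the other 7 genes. As deposited, at no time point was Tdg called against 0 h, and its libraries overlapped those of 0 h at every replicated time point. Scaled to the blood-cell genes, Tdg was called higher at 6 h (2.13, limma adjusted p = 0.00224) and at 24 h (1.60, limma adjusted p = 0.0149). The medians of all genes so scaled were 1.21 and 1.88, and 70.2% and 81.4% of all genes were called higher. The RefSeq table names Tdg-ps and Tdg-ps2 besides Tdg, so the value may depend on how reads were shared among these loci, which was not tested.

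**Figure D2:**
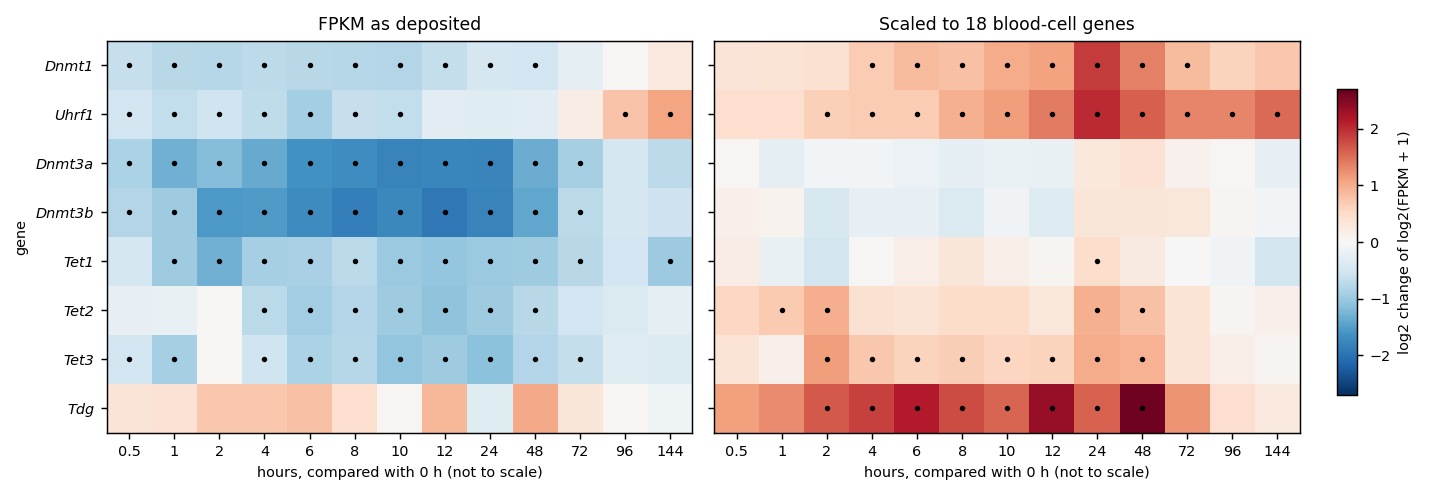
Log2 change of log2(FPKM + 1) against 0 h (colour, blue lower and red higher) by gene (vertical axis) and replicated time point (hours, horizontal axis, not to scale), as deposited (left) and with libraries scaled to 18 blood-cell genes (right); dots mark limma adjusted p under 0.05. The blue of the left panel turns red for Dnmt1, Uhrf1, Tet2 and Tet3 on the right, where Dnmt3a and Dnmt3b stay pale, and Uhrf1 is red at 144 h in both.

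Counted together, 5 of the 8 genes were called lower than 0 h at 0.5 h and none higher, where 7.29% of all genes were called lower. The libraries of 7 of the 8, all but Tdg, lay below those of 0 h without overlap, where 19.7% of all genes did. Called were Dnmt1, Uhrf1, Dnmt3a (-0.84 ± 0.29), Dnmt3b (-0.78 ± 0.24) and Tet3 (-0.51 ± 0.18), and scaled to the blood-cell genes these 5 changes turned positive. In that scaling limma called none of the 8 (38.7% of all genes were higher), and 0 at an unadjusted p under 0.05. Dnmt1 kept its call without each of the 6 libraries in turn. The count was 4 without 0 h replicate 3, 3 without 0.5 h replicate 1 or replicate 3, and 2 without 0.5 h replicate 2, 0 h replicate 1 or 0 h replicate 2. Within the 3 runs the log2 changes of Dnmt1 were -0.59, -0.86 and -0.42 and those of Dnmt3a were -0.92, -0.84 and -0.78.

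Over the next hours the count of genes called lower was 6 at 1 h, 5 at 2 h and 7 at 4, 8 and 10 h, where 15.3%, 18.5%, 17.0%, 19.2% and 20.5% of all genes were. It was 6 at 12 h (20.3% of all genes) and 6 at 48 h (16.4%). As deposited, none of the 8 was called higher at these times. With the blood-cell scaling none was called lower, and 1 gene was called higher at 1 h, 4 from 2 to 12 h (each of 2, 4, 8, 10 and 12 h) and 5 after 48 h, where 48.8%, 49.0%, 63.6%, 70.0%, 74.8%, 73.3% and 79.9% of all genes were. With the stromal covariate limma called none of the 8 at these 7 times, and at an unadjusted p under 0.05 the count was 2 at 2 h and 0 at the others. For 1, 2, 4 and 8 h that fit called 0.165%, 0.424%, 0.0791% and 0.0360% of all genes, and for 10, 12 and 48 h it called 0% of them.

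At 6 h, 7 of the 8 genes were called lower, where 19.2% of all genes were. Dnmt3b (-1.70 ± 0.24) and Dnmt3a (-1.63 ± 0.29) changed most, and Tet2 (-0.93 ± 0.22), Uhrf1, Tet1 (-0.87 ± 0.19), Tet3 (-0.86 ± 0.18) and Dnmt1 followed. The median log2 change of the 8 was -0.90, against -0.06 over all genes. With the blood-cell scaling 4 were called (Dnmt1, Uhrf1, Tet3 and Tdg), all of them higher, where 70.2% of all genes were. Each of the 7 called genes was lower in all 3 runs.

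At 24 h the count was 6 lower, where 22.5% of all genes were called lower, and the median of the 8 was -0.98. Uhrf1 (-0.32 ± 0.16, limma adjusted p = 0.104) and Tdg did not pass. With the blood-cell scaling 6 were called, all of them higher (81.4% of all genes). Relative to the median of all genes in that scaling, Dnmt1 was at 0.01 and Uhrf1 at 0.13, while Tet2 (-0.92), Tet3 (-0.87), Tet1 (-1.40), Dnmt3b and Dnmt3a lay lower. Within the 2 runs that hold both times, Dnmt3a was at -1.64 and -1.44 and Dnmt3b at -1.38 and -1.87.

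By 72 h, 4 of the 8 were still called lower, where 8.23% of all genes were: Dnmt3a (-0.90 ± 0.29), Tet1 (-0.75 ± 0.19), Dnmt3b (-0.73 ± 0.24) and Tet3 (-0.64 ± 0.18). In the blood-cell scaling these 4 were at 0.0005 to 0.37, none called, and Dnmt1 and Uhrf1 were called higher (59.2% of all genes). Dnmt3a lost its call without 72 h replicate 2, 72 h replicate 3 or 0 h replicate 1, and Dnmt3b without 72 h replicate 2 or 0 h replicate 2. The count was 2 without 72 h replicate 2, 1 with the compared libraries alone and 3 with runs as a block, where Dnmt3b lost its call (-0.83, adjusted p = 0.0654).

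At 144 h 2 of the 8 genes were called against 0 h, and the median of the 8 was -0.31. Uhrf1 was called higher (5.64% of all genes, and 3.72% with the blood-cell scaling, where it was at 1.54) and Tet1 lower (3.24% of all genes). At 96 h Uhrf1 was the 1 gene of the 8 called, again higher, as were 7.79% of all genes. The blood-cell scaling (7.03% of all genes higher) and the stromal covariate (1.08% called in either direction) also called it higher. No run of library codes holds both 0 h and 144 h. With runs as a block the changes were 1.03 for Uhrf1 (limma adjusted p = 0.000332) and -0.97 for Tet1 (adjusted p = 0.00623). The stromal genes had a median log2 change of 0.94 and the blood-cell genes of -0.49 in this comparison.

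Between 24 h and 144 h, 6 of the 8 genes rose, where 17.4% of all genes did. Uhrf1 rose by 1.39 ± 0.16 on the log2 scale (limma adjusted p = 1.04e-07), Dnmt3b by 1.24 ± 0.24, Dnmt3a by 1.09 ± 0.29, Tet3 by 0.74 ± 0.18, Dnmt1 by 0.70 ± 0.12 and Tet2 by 0.70 ± 0.22. Tet1 stood at 0.03 ± 0.19 (adjusted p = 0.938). With the blood-cell scaling all 8 values were negative, from -0.41 for Dnmt3b to -1.33 for Tdg. Of the 8, 5 were called lower, as were 78.2% of all genes. The median of all genes so scaled was -1.48, and the 8 lay above it by 0.15 (Tdg) to 1.08 (Dnmt3b). In the 1 run with both times the changes were 1.55 for Uhrf1, 1.72 for Dnmt3b, 1.42 for Dnmt3a and 0.30 for Tet1. Dnmt3a lost its call without 24 h replicate 3 (0.77, adjusted p = 0.0628) and Tet2 without 24 h replicate 2 (0.61, adjusted p = 0.056). The count was 3 with the compared libraries alone and 5 with runs as a block, where Tet2 lost its call. The stromal genes had a median of -1.75 and the blood-cell genes of 1.77.

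Values within a library do not depend on the scaling of that library, apart from the pseudocount, so the genes were also set against each other. Such differences and shares still depend on the mix of feeder and blood transcripts, which moved with time. Its part in them was not tested. The difference of log2(FPKM + 1) between Uhrf1 and Dnmt1 was 0.09 ± 0.19 at 0 h (SD, n = 3) and -0.10 ± 0.17 at 6 h, close to equal levels. After 72, 96 and 144 h it was 0.54 ± 0.13, 0.81 ± 0.25 and 0.90 ± 0.05, with 0.95 and 1.08 in the single libraries of 120 and 168 h. The 0 h libraries lay between -0.09 and 0.30 and those of 144 h between 0.84 and 0.92, with no overlap. These are descriptions, with no test.

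Among the 3 methyltransferase genes, the share of Dnmt1 in their summed FPKM was 67.9 ± 1.82% before the change, 85.9 ± 4.46% after 24 h and 79.95 ± 1.47% after 144 h. The share of Dnmt3a went from 15.2 ± 2.38% to 6.72 ± 2.55% and 9.06 ± 2.88%. That of Dnmt3b went from 16.9 ± 3.41% to 7.35 ± 2.06% and 10.985 ± 1.58%. The Dnmt1 share did not overlap between 0 h and 24 h (66.0 to 69.6% against 82.3 to 90.9%). Feeder cells can contribute to each of these sums. The mean log2 difference of Dnmt3a and Dnmt3b lay between -0.48 at 1 h and 0.24 at 2 h, and single libraries ran from -1.10 at 168 h to 0.72 at 8 h.

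Within the summed Tet FPKM, Tet3 held 58.7 ± 1.27% at 0 h, Tet2 27.8 ± 1.73% and Tet1 13.5 ± 1.01%. Tet2 reached 40.6 ± 4.57% at 1 h, when Tet3 was low. At 2 h Tet3 held 66.2 ± 5.26% and Tet1 3.04 ± 0.0184%, its smallest share, with the 3 libraries between 3.03 and 3.06%. Tet1 was under 1 FPKM in all 3 of them, so this narrow spread is no measure of precision. At 144 h Tet1 held 6.48 ± 0.971%, below its 0 h range of 12.4 to 14.3%.

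**Figure D3:**
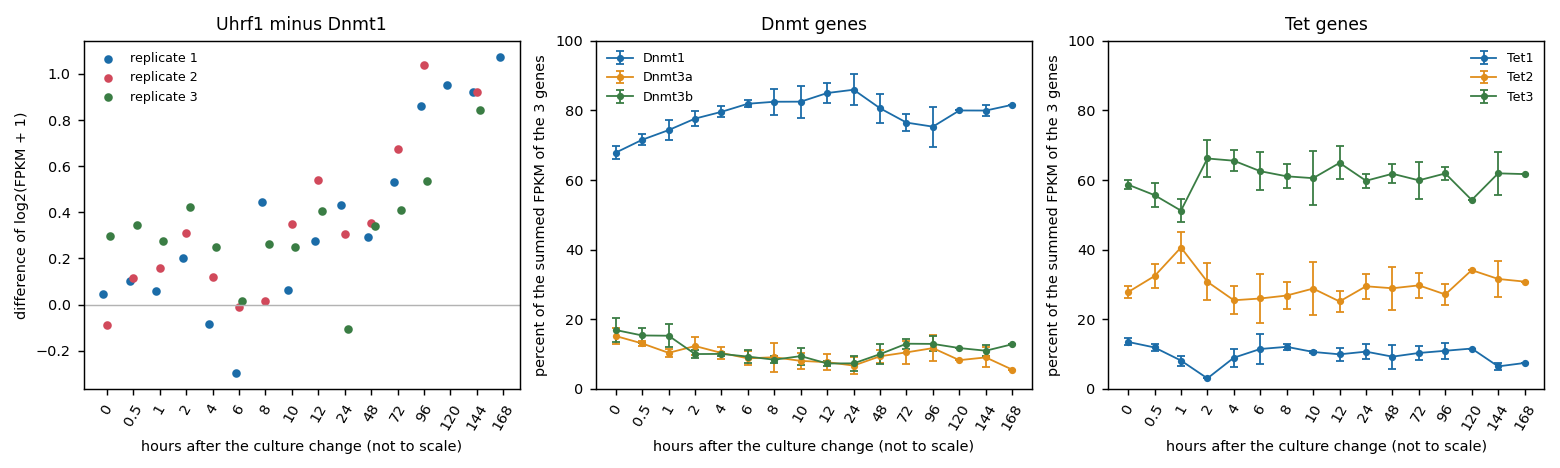
Left, difference of log2(FPKM + 1) between Uhrf1 and Dnmt1 in each library (points, coloured by replicate); middle and right, mean percent of the summed FPKM held by each Dnmt and each Tet gene, with SD as bars (none at 120 and 168 h, with 1 library), all against hours, not to scale. The left panel climbs from 0.09 at 0 h to 0.90 at 144 h, Dnmt1 peaks at 85.9% at 24 h, and Tet1 has its trough of 3.04% at 2 h.

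Over the means of the 14 replicated time points, Dnmt3a and Dnmt3b correlated at r = 0.96, Dnmt1 and Uhrf1 at 0.94 and Tet2 and Tet3 at 0.83. Tet1 gave 0.34 with Tet2 and 0.37 with Tet3, and pairs of unlike role reached 0.80 (Dnmt3a with Tet2 and with Tet3) and 0.78 (Dnmt1 with Dnmt3b), while Tdg gave -0.05 to -0.57 with the others. These values describe 14 means of shared libraries that also share the feeder shift. Most like Dnmt1 were Clspn (r = 0.98), a replication checkpoint gene, Ncapd2 (0.97), a condensin gene, and Ipcef1 (0.97). Most like Uhrf1 were Cbx2 (0.98), a Polycomb gene, Lig1 (0.97), the DNA ligase of replication, and Sae1 (0.96), of the SUMO pathway. For Dnmt3a they were Sema4a, B4galnt4 and Zfp422 (each 0.98), and for Dnmt3b Sh2d5, Epb4.1 and Ccni (each 0.98). Tet1 was most like Itga4 (0.94), an integrin gene, Kctd1 and P2ry14 (each 0.92). Tet2 was most like Son, Esr1 and Ly6d (each 0.95), and Tet3 like Arid3a (0.96), a B-lineage transcription factor gene, Nbeal2 (0.95) and BC002230 (0.94). For Tdg the values were lower, with Arntl2 and Poldip3 at 0.84 and Bglap at 0.83.

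Of 12 partner genes of the methylation machinery, 10 were tested. At 24 h 3 rose and 4 fell, with a median log2 change of -0.31, where 20.8% of all genes were called higher and 22.5% lower. Scaled to the blood-cell genes all 10 were higher, as were 81.4% of all genes. Trim28, a corepressor that brings methylation to silenced repeats, fell from 184 to 80.01 FPKM (-1.25 ± 0.18, limma adjusted p = 9.73e-07, 1.10 so scaled). Zfp57, a zinc finger gene of imprint maintenance, rose from 2.50 to 16.1 FPKM (2.39 ± 0.32, 4.15 so scaled). At 144 h Lig1 (37.3 to 64.1 FPKM, 0.76 ± 0.15, adjusted p = 0.000972) and Pcna (320 to 480 FPKM, 0.57 ± 0.18, adjusted p = 0.0419), both of the replication fork where DNMT1 acts, were higher than at 0 h. They were higher so scaled too (1.21 and 1.05), but the median of all genes so scaled was 0.38, which favours rises. From 24 to 144 h, Cdca7, a partner of the remodeller HELLS, went from 39.1 to 108 FPKM (1.57 ± 0.25, and -0.27 so scaled), among 6 that rose and 1 that fell.

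In the demethylation and base excision repair list, 18 of 22 genes were tested. At 0.5 h 4 rose and 3 fell, where 14.3% of all genes were called higher and 7.29% lower. At 24 h 3 rose and 6 fell (20.8% and 22.5% of all genes). The GADD45 genes, stress-induced adaptors linked to DNA repair and demethylation, led the rises. Gadd45g went from 15.1 FPKM at 0 h to 168 at 0.5 h (3.55 ± 0.34, limma adjusted p = 5.79e-09), 180 at 6 h and 85.2 at 24 h. Gadd45b went from 16.4 to 45.2 FPKM at 0.5 h and 117 at 6 h (2.83 ± 0.27). Both were also called higher when scaled to the blood-cell genes (4.38 and 2.35 at 0.5 h). That scaling put the median of all genes at 0.69, so it could not have turned a rise around. Cxxc5, whose protein binds unmethylated CpG and TET2, fell from 35.0 to 5.37 FPKM at 24 h (-2.59 ± 0.33, adjusted p = 1.87e-07), and was at -0.45 and not called so scaled (adjusted p = 0.157). It came back to 24.4 FPKM at 144 h. Parp1, a sensor of DNA breaks, stood at 47.7 FPKM at 24 h and 176 at 144 h (1.91 ± 0.18, adjusted p = 3.49e-09, and 0.05 so scaled).

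Of the 7 methyl-CpG reader genes, 3 rose and 3 fell at 24 h (20.8% and 22.5% of all genes). Zbtb38 rose from 6.17 to 22.6 FPKM (1.71 ± 0.30, 3.77 so scaled) and Mbd1 fell from 18.6 to 7.98 (-1.15 ± 0.21, and 1.03 so scaled, to the blood-cell genes). The median of all genes so scaled was 1.88, which favours rises. The 10 genes of S-adenosylmethionine and one-carbon metabolism, which supply the methyl group, gave 2 lower and none higher at 24 h, the former close to the 22.5% of all genes called lower. These were Mtr, methionine synthase (10.1 to 3.70 FPKM, -1.28 ± 0.23), and Shmt1, a serine hydroxymethyltransferase (-1.02 ± 0.35). When scaled to the blood-cell genes these turned to 0.72 and 1.18.

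DNA replication genes, which share a cell cycle phase with Dnmt1 and Uhrf1, gave 11 lower of 24 at 6 h and none higher, where 19.2% of all genes were called lower and 19.0% higher. Their median log2 change was -0.45, against -0.06 for all genes, and 1.10 against 1.21 when scaled to the blood-cell genes. Mcm6, of the replicative helicase, went from 142 to 73.8 FPKM (-0.94 ± 0.18, 0.68 so scaled). At 144 h 6 of 24 were higher than at 0 h and none lower (5.64% and 3.24% of all genes), with a median of 0.34, and 0.79 so scaled against 0.38 for all genes. Pold1, the catalytic subunit of DNA polymerase delta, went from 30.7 to 60.7 FPKM (0.95 ± 0.19, limma adjusted p = 0.000983) and Orc1 from 3.94 to 9.003 (1.00 ± 0.25, adjusted p = 0.00947). In the same comparison Uhrf1 changed by 1.07, and Dnmt1 was at 0.26, which did not pass.

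Between 24 and 144 h 17.4% of all genes were called higher and 15.6% lower. Of the genes tested, 6 rose and 2 fell in the demethylation and repair list, 3 and 1 among the readers, and 11 and none among the replication genes. In the S-adenosylmethionine list 3 rose and none fell. With the blood-cell scaling, where 78.2% of all genes were called lower, 8 of 10 partners, 14 of 18 demethylation and repair genes, 7 of 7 readers, 9 of 10 S-adenosylmethionine genes and 22 of 24 replication genes were lower.

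**Figure D4:**
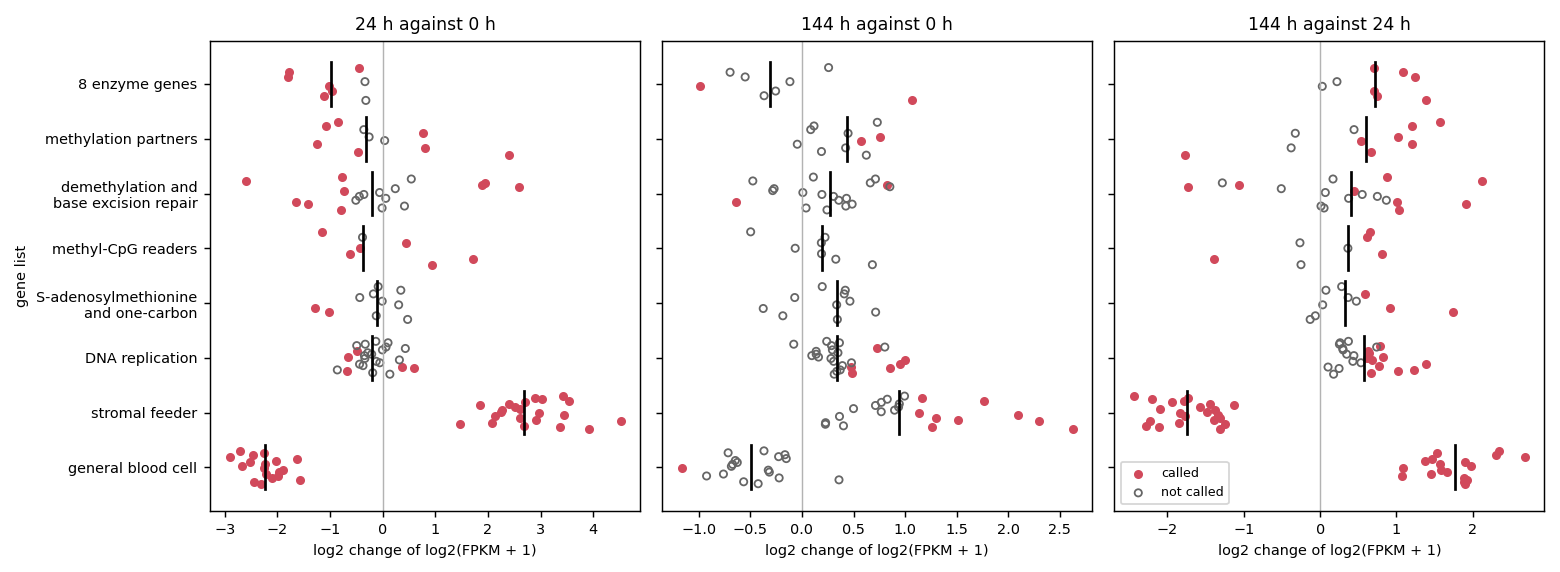
Log2 change of log2(FPKM + 1) (horizontal axes) for each gene of each list (vertical axis), at 24 h and at 144 h against 0 h and at 144 h against 24 h; points are genes, filled where the limma adjusted p was under 0.05, and bars are list medians. The 8 enzyme genes have medians of -0.98, -0.31 and 0.72, beside 2.69, 0.94 and -1.75 for the stromal genes and -2.24, -0.49 and 1.77 for the blood-cell genes. Scaled to the blood-cell genes, all 8 values at 24 h turn positive and all 8 of the last panel turn negative. The medians of all genes so scaled are 1.88 and -1.48 in these comparisons.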

How the data were processed

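Per the labels' protocols, poly(A) RNA libraries were sequenced on an Illumina instrument. Alignment tools listed in the submitters' processing notes were TopHat2 (2.1.0) with Cufflinks (2.1.1), on build mm9. The authors deposited 1 table of FPKM per gene and library, called corrected, with the correction not given in the sources used here. It holds no counts, so depth is unknown and no counting interval is given. Values were taken as log2(FPKM + 1) without further scaling. The 42 libraries of replicated time points entered limma 3.58.1 (R 4.3.3, eBayes with a trend), each time point having its own mean. The 13907 genes that reached 1 FPKM in 3 or more of them were tested, with Benjamini-Hochberg adjustment per contrast and calls at an adjusted p under 0.05. The single libraries of 120 and 168 h were not fitted. The fit was tested on simulated data.

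The 8 genes and the lists were chosen with earlier results of these data known. Up to 3 called members with the largest change per list and comparison could be named, and for each of the 8 genes the 3 most correlated genes. Steps between neighbouring time points and other times against 0 h, with their blood-cell scaling and stromal covariate, were added after seeing the data. Samples were grouped by the time in their labels. Promoter sequences and motifs are from RefSeq on GRCm38.p6 and were not joined to mm9 coordinates. Alternatives were another pseudocount (0.1), no filter and a filter at 5 FPKM, quantile and median-ratio scaling, blood-cell scaling, the stromal mean as a covariate, blocks for replicate or library-code run, the compared libraries alone, and each library left out.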

Additional observations from a re-analysis of the deposited data

Results flagged for a closer look

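The single libraries at 120 and 168 h entered no comparison. Uhrf1 stood at 145 FPKM at 120 h and at 205 FPKM at 168 h, both above the highest 0 h library (80.6 FPKM). Dnmt1 stood at 96.6 FPKM at 168 h, above the highest 0 h library (83.6 FPKM). Each was picked out because a library outside the comparisons exceeded every 0 h library, and with 1 library per time there is no replicate check.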

How the results depend on the processing

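Depth limits are unknown without counts. Of 762 single-gene values recomputed under the alternatives, 655 kept their side of the threshold, which includes sign changes of values called in neither fit. A further 59 lost and 12 gained a call with the sign kept, and 36 that were called in either fit changed sign. Those 36 came from the blood-cell scaling (31) and the stromal covariate (5) alone. Scaled to the blood-cell genes, the log2 changes at 0.5 h were 0.34 for Dnmt1, 0.44 for Uhrf1, 0.061 for Dnmt3a, 0.13 for Dnmt3b and 0.37 for Tet3. At 6 h they were 0.86 for Dnmt1, 0.68 for Uhrf1, 0.18 for Tet1, 0.36 for Tet2 and 0.60 for Tet3, and at 24 h 1.88 for Dnmt1, 2.01 for Uhrf1, 0.29 for Dnmt3a, 0.32 for Dnmt3b, 0.47 for Tet1, 0.95 for Tet2, 1.01 for Tet3 and 1.60 for Tdg. At 72 h they were 0.86 for Dnmt1, 0.13 for Dnmt3a, 0.31 for Dnmt3b, 0.0005 for Tet1 and 0.37 for Tet3. For 144 h against 24 h they were -1.15 for Dnmt1, -0.47 for Uhrf1, -0.51 for Dnmt3a, -0.41 for Dnmt3b, -0.96 for Tet1, -0.82 for Tet2, -0.93 for Tet3 and -1.33 for Tdg, where the median of all genes was -1.48. With the stromal covariate, values called as deposited that changed sign were 0.21 for Dnmt3a and 0.15 for Tet3 at 0.5 h, 0.0097 for Tet3 at 6 h, 0.0567 for Dnmt1 at 24 h and 0.11 for Dnmt3a at 72 h. With the blood-cell scaling, the number of the 8 genes called went from 5 lower to 0 at 0.5 h and from 7 lower to 4 higher at 6 h. It went from 6 lower to 6 higher at 24 h and from 4 lower to 2 higher at 72 h. At 144 h it went from 1 higher and 1 lower to 1 higher, and for 144 h against 24 h from 6 higher to 5 lower. With the stromal covariate it was 0 at 0.5, 6, 24 and 72 h and 1 (of 6) for 144 h against 24 h. Because that covariate moved with time, lost calls and changed signs under it decide nothing about the feeder shift. With the compared libraries alone it was 3 at 0.5 h, 1 at 72 h and 3 for 144 h against 24 h, where fewer samples set the spread. A filter at 5 FPKM, which leaves out Tet1, gave 1 at 144 h (1184 of all 10924 genes). Quantile normalization gave 6 at 72 h (3809 of all 13907 genes). Leaving out 1 library, the counts ranged from 2 to 4 at 0.5 h, 7 to 7 at 6 h, 6 to 7 at 24 h, 2 to 5 at 72 h, 2 to 2 at 144 h, 5 to 6 for 144 h against 24 h and, without 1 replicate number, 5 to 7 by the F test. With a replicate block the counts were 6, 7, 6, 4, 3 and 6 in the 6 comparisons and 7 by the F test, with Dnmt3a also called lower at 144 h (-0.70, limma adjusted p = 0.0223) and Tet1 at 0.5 h (-0.47, adjusted p = 0.0444). Same-numbered libraries correlated at r = -0.06 to 0.16 in their deviations, and each correlated best with its own number except replicate 2 at 72 h. Libraries of one number thus shared a weak likeness. The main fit leaves it out, and the counts with a replicate block take it in. Other causes were not tested.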

Other observations

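Other values of the single libraries belong to no comparison. At 120 h Dnmt1 stood at 74.4 FPKM, Dnmt3a at 7.69, Dnmt3b at 10.9, Tet1 at 2.17, Tet2 at 6.38, Tet3 at 10.1 and Tdg at 15.0. At 168 h Dnmt3a stood at 6.58, Dnmt3b at 15.2, Tet1 at 1.21, Tet2 at 4.98, Tet3 at 9.96 and Tdg at 12.4. In the 168 h library the log2 difference between Dnmt3a and Dnmt3b was -1.10, outside the range of the 3 libraries at 144 h (-0.66 to 0.39). The summed FPKM of the 24 stromal genes was 3596 at 120 h and 1868 at 168 h.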
